A study of Mus musculus with 36 samples.

Results

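The Myc family mRNAs were followed in a SLAM-seq series from mouse embryonic stem cells (mES cells). The 5 members were Myc, Mycn, Mycl, Max and Mga, found by gene symbol in all 6 tables of the series, among 22979 genes listed in any table and 18419 listed in all. In SLAM-seq, RNA made during a pulse takes up 4-thiouridine (4sU), alkylation of the thiol group makes reverse transcription read the base as C, and T-to-C mismatches then separate new RNA from old. The 36 libraries came from 3 cell lines, each 1 clone with an FKBP12-based degron tag on 1 protein, and each is named here by that protein. Clone 12D carried the tag on METTL3, which writes m6A onto nascent mRNA as the catalytic part of the methyltransferase. Clone Y12H carried it on YTHDC1, a protein that binds m6A in the nucleus, and clone Z12H on ZCCHC8, part of the complex that directs RNA to the nuclear exosome.

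Each line had a Ctrl arm without the degrader and a dTAG arm that received dTAG-13 from 2 h before doxycycline. All groups, Ctrl included, were hybrid Cast x 129S cells carrying an Xist gene with inserted Bgl stem loops under a TetOn promoter, and all were induced with 1 µg/ml doxycycline, added 20 h ahead of a 4 h pulse of 500 µM 4sU and kept on through it. The chase with 50 mM uridine lasted 0, 90 or 180 min, and each of the 18 groups of line, arm and chase time had 2 replicates. The degron acts on the protein, so the level of the targeted mRNA does not check the labels, and depletion was not measured here. According to the reporting summary of the study, the wells of a biological replicate in tissue culture came from 1 batch of cells and were allotted to conditions at random. Whether this held for these libraries is not stated in the labels, and the p-values measure the spread between the libraries.

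MYC, MYCN and MYCL are basic helix-loop-helix leucine zipper transcription factors that bind E-box DNA as dimers with MAX and activate genes of ribosome synthesis, metabolism and proliferation. MAX also pairs with MXD proteins, MNT and MGA, which oppose MYC, and MGA is the DNA-binding scaffold of the repressive PRC1.6 complex that silences germline genes in mES cells. MYC mRNA is a textbook short-lived transcript, turned over through AU-rich elements in its 3′ UTR and a coding-region determinant, and m6A on mRNA is widely linked to faster decay. mES cells express both Myc and Mycn, which can replace each other there.

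In the GENCODE M21 annotation (build mm10) Myc lies on chromosome 15 from 61985391 to 61990374 on the plus strand, Mycn on chromosome 12 from 12936093 to 12941914 on the minus strand and Mycl on chromosome 4 from 122995652 to 123002485 on the plus strand. Max is on chromosome 12 from 76937269 to 76962201 on the minus strand and Mga on chromosome 2 from 119897228 to 119969581 on the plus strand. Myc, Mycn, Mycl and Mga overlapped no other annotated gene, and Max overlapped 1 unconfirmed transcript model on its own strand. Sequence features were counted in 1 transcript per gene. Its length equals the deposited one for all 5 members, and for 74.1% of the 11604 genes they are compared with. GGACT, a common form of the sequence that METTL3 methylates, occurred 6 times in the 2338 bases of Myc, or 2.57 per kb. That density was higher than in 96.0% of 11604 genes compared, whose median was 1.04 per kb. Mycl held 5 in 3501 bases, Mycn 2 in 2674, Max 2 in 1942 and Mga 8 in 13931, or 1.43, 0.75, 1.03 and 0.57 per kb.

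The coding GGACT of Myc and Mycn that lie closest to their start codons, and the GGACT closest to their stop codons, are shown with 10 bases on either side, 5′ to 3′ on the coding strand and with GGACT in capitals, because these are the transcripts with the fastest label loss below. The windows are Myc at chr15:61987907-61987931, Mycn at chr12:12940038-12940062, Myc at chr15:61989829-61989853 and Mycn at chr12:12937002-12937026, each within 1 exon, the last spanning the stop codon.
Myc, first coding GGACT: tcatcatccaGGACTgtatgtggag
Mycn, first coding GGACT: tcatccttcaGGACTgcatgtggag
Myc, last coding GGACT: cctctgaaaaGGACTtattgaggaa
Mycn, last coding GGACT: gaacacgctcGGACTtgctaaacgt
The first windows of Myc and Mycn were identical at 22 of 25 bases. The core letters of an AU-rich element, ATTTA, occurred 2 times in the 442 bases of the Myc 3′ UTR (4.52 per kb, above 91.9% of 11079 genes with a 3′ UTR of at least 100 bases, median 1.38 per kb) and 1 time in the 913 bases of that of Mycn (1.10 per kb). The 3′ UTRs of Mycl, Max and Mga held 2, 1 and 5. The windows below show the ATTTA of the Myc 3′ UTR, at chr15:61990137-61990161 and chr15:61990274-61990298, and of the Mycn 3′ UTR, at chr12:12936151-12936175, in capitals.
Myc, first ATTTA: acagatttgtATTTAattgtttttt
Myc, second ATTTA: aattttttttATTTAaagacatttt
Mycn, ATTTA: aaatgtatatATTTAgtgctgcacc
A match of these letters is not evidence of methylation or of protein binding, neither of which was measured.

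Depth was 5274684 to 18652000 reads per library, lowest in the ZCCHC8 line, and Myc was covered by 87 to 634 reads. All 9 mES cell markers, such as Pou5f1 at a mean of 646 reads per 1000000 (RPM), were present in every library, and their sum was 2537 to 3675 RPM. The 10 fibroblast markers, which could come from feeder cells, summed to 8.87 to 37.9 RPM, and Lum was at 0 in 22 of 36 libraries. The replicates of the METTL3 and YTHDC1 lines stood apart in the level of Myc. Replicate 2 held more Myc than replicate 1 in 6 of 6 combinations of arm and chase time, by a median ratio of 2.60 in the METTL3 line and 2.51 in YTHDC1 cells, while in the ZCCHC8 line it held less in 6 of 6, with a median ratio of 0.89. Mycn and Max were also higher in replicate 2 in 6 of 6 combinations in both the METTL3 and the YTHDC1 line, and Mga was lower in 6 of 6 in the METTL3 and the ZCCHC8 line. Mycl was higher in replicate 2 in 6 of 6 in the ZCCHC8 line. The labels give no batch beyond the replicate number.

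The level of each member, in counts per 1000000 reads (CPM) scaled between libraries, is plotted for every library.

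**Figure D1:**
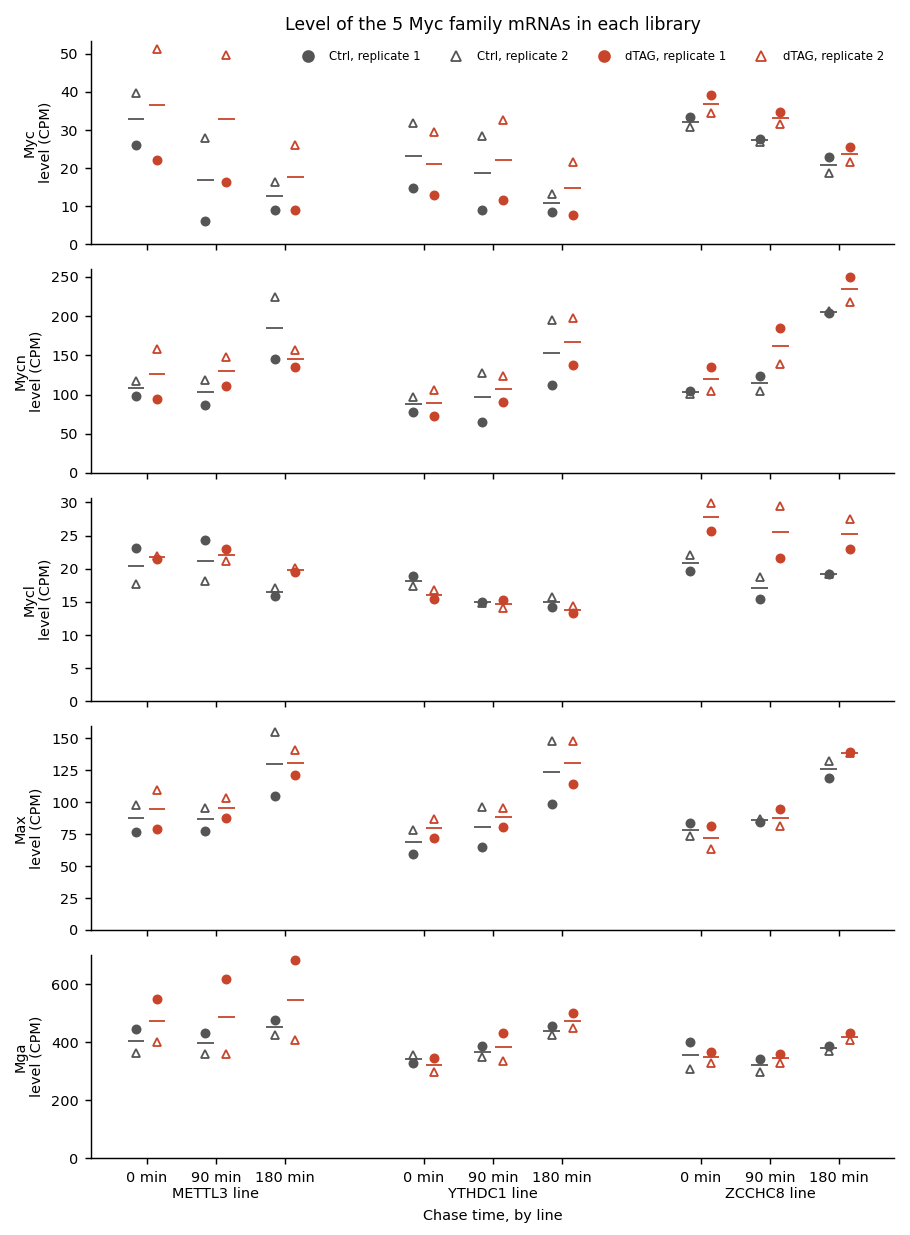
Level of each of the 5 mRNAs (vertical axis, CPM from 0) against chase time within each line, with Ctrl in grey and dTAG in red, 1 point per library and a short line at the mean of 2 replicates. Mean Myc is lowest at 180 min in every line and arm, with replicates far apart in the METTL3 and YTHDC1 lines, mean Mycn and Max are highest at 180 min, and the dTAG points of Mycl lie above the Ctrl points in the ZCCHC8 line.

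Levels can be compared between genes only per length, so transcripts per 1000000 (TPM, made here from the counts and the deposited lengths) were used for the order of the members in Ctrl cells. Max was the most abundant member by its median over the 6 Ctrl libraries, at 142 TPM in the METTL3 line (99.4 to 241), 124 in YTHDC1 cells (69.4 to 231) and 119 in the ZCCHC8 line (99.5 to 198). Mycn followed at 125 (81.6 to 254), 107 (60.5 to 221) and 115 TPM (98.5 to 224). The ranges of Max and Mycn overlapped in every line. Library by library, Max was above Mycn in 6 of 6 in YTHDC1 cells, but only in 4 of 6 in the METTL3 line and 3 of 6 in the ZCCHC8 line. Mga, a very long mRNA, came next at 79.4, 70.3 and 69.7 TPM and was below Mycn in 6, 5 and 6 of 6 libraries. Myc came after it at 24.7 TPM in the METTL3 line (6.63 to 47.8), 15.7 in YTHDC1 cells (9.67 to 37.4) and 31.5 in the ZCCHC8 line (23.2 to 36.3), below Mga in 6 of 6 libraries of every line with no overlap. Mycl was lowest at 14.9, 12.1 and 15.1 TPM, and it was below Myc with no overlap in the ZCCHC8 line alone, where Myc exceeded it in 6 of 6 libraries, against 4 of 6 in each of the other lines.

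The chase asks how each mRNA behaves once labelling stops. Myc fell over the chase. In the ZCCHC8 line its level was 33.4, 30.7, 39.2 and 34.4 CPM at 0 min (Ctrl replicates 1 and 2, then dTAG replicates 1 and 2), 27.7, 26.8, 34.9 and 31.6 CPM at 90 min and 23.0, 18.7, 25.6 and 21.8 CPM at 180 min. The 4 libraries at 180 min were all below the 4 at 0 min and at 90 min. The fitted change from 0 to 180 min was -0.62 on the log2 scale (adjusted p = 9.72e-06, edgeR quasi-likelihood F test over both chase steps with Benjamini-Hochberg adjustment over 14227 genes). In that line 57.1% of all genes passed this test, in either direction. In the METTL3 line, where 7.83% of genes passed, Myc moved by -1.22 without passing (adjusted p = 0.35), and in YTHDC1 cells, where 31.6% passed, by -0.82 (adjusted p = 0.37). With the replicate number as a block, Myc fell in both (-1.26, adjusted p = 0.0035 in the METTL3 line, and -0.80, adjusted p = 0.00018 in YTHDC1 cells).

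Mycn moved the other way. In the ZCCHC8 line Mycn was at 105, 100.5, 135 and 105 CPM at 0 min, in the same order of libraries, at 124, 105, 185 and 139 CPM at 90 min and at 204, 207, 250.5 and 218 CPM at 180 min. No library at 180 min fell below 204 CPM, and none before it exceeded 185 CPM. The rise to 180 min was 0.98 in the ZCCHC8 line (adjusted p = 1.55e-06) and 0.86 in YTHDC1 cells (adjusted p = 0.033), with 0.51 in the METTL3 line (adjusted p = 0.25, and 0.0022 with the replicate block). Max, its dimer partner, followed the same course, with 0.81 in the ZCCHC8 line (adjusted p = 5.74e-09), 0.78 in YTHDC1 cells (adjusted p = 0.0085) and 0.52 in the METTL3 line (adjusted p = 0.091, and 0.00013 with the replicate block). Mga rose by 0.46 in YTHDC1 cells (adjusted p = 0.015) and 0.18 in the ZCCHC8 line (adjusted p = 0.0090), the latter lost without replicate 2 (0.090, adjusted p = 0.13), and was at 0.18 in the METTL3 line (adjusted p = 0.84). Mycl was at -0.22, -0.25 and -0.13 in the METTL3, YTHDC1 and ZCCHC8 lines, past the threshold in none, and in YTHDC1 cells alone with the replicate block (-0.25, adjusted p = 0.042). The median change of all genes was -0.05, -0.01 and -0.01. Levels are relative to all reads of a library, so a change over the chase is a change against the other mRNAs.

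The new-to-total ratio, the deposited estimate (MAP, the mode of its posterior) of how large a part of the reads of a gene stems from RNA made in the pulse, was, among the members, highest for Myc before the chase and lowest for Myc and Mycn after it. At the end of the pulse the ratio of Myc was 92.2 to 100% over the 12 libraries at 0 min and that of Mycn 86.1 to 98.2%. Ratios of Mycl, Max and Mga reached from 66.6 to 97.4%, from 67.4 to 87.7% and from 55.6 to 84.6%, while the median of the genes tested was 48.4 to 60.3% in these libraries. After 180 min of chase the ratio of Myc was 13.9 to 41.2% and that of Mycn 16.7 to 38.5%, below every value of Mycl (42.2 to 65.7%). Apart from 1 library, Ctrl replicate 1 of the ZCCHC8 line, they also lay below every value of Max (34.4 to 59.0%) and Mga (37.6 to 67.0%).

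**Figure D2:**
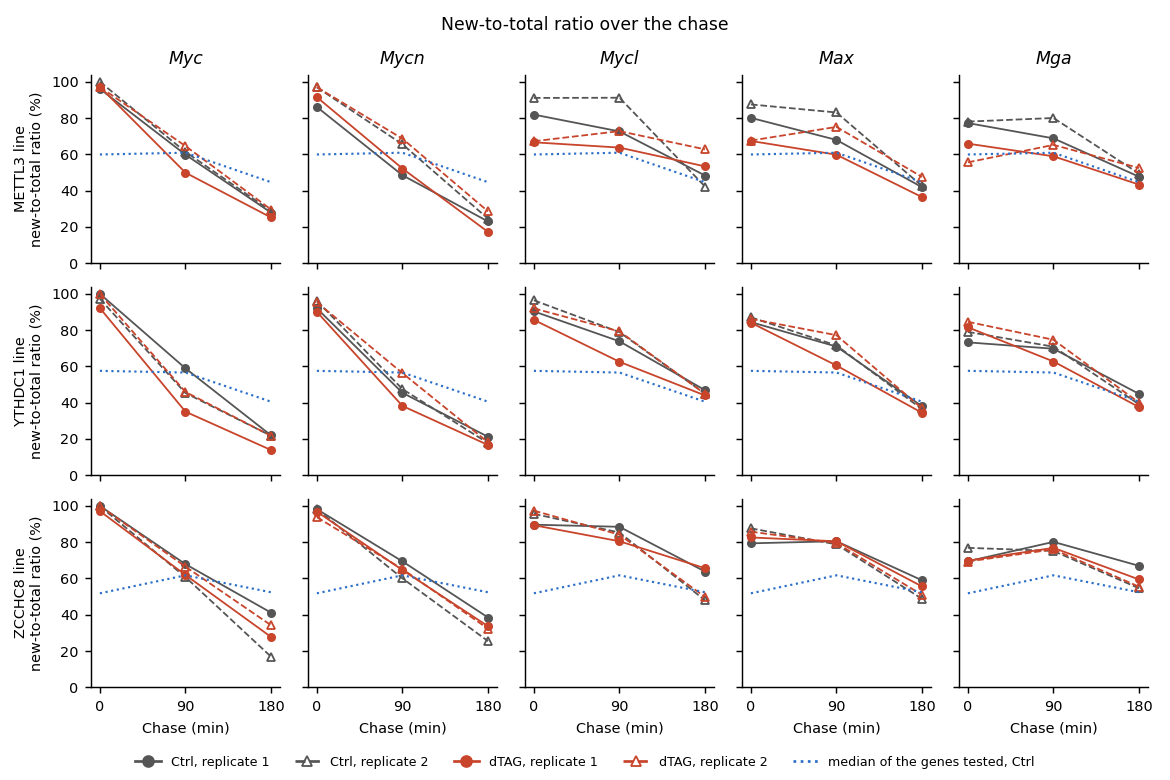
New-to-total ratio (vertical axis, percent) against chase time (min) for each member, 1 row of panels per line, Ctrl in grey and dTAG in red, 1 curve per replicate, with the median of the genes tested in Ctrl dotted in blue. Myc starts highest of the members in every library, and Myc and Mycn end at or below 41.2%, under the other members of the same library.

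Label loss was fitted as the slope of log2 of this ratio per hour of chase (limma, genes with at least 20 reads in every library of the line). In Ctrl cells the slope of Myc was -0.60 ± 0.06 (SE) in the METTL3 line, -0.72 ± 0.07 in YTHDC1 cells and -0.64 ± 0.10 in the ZCCHC8 line. Those of Mycn were -0.65 ± 0.09, -0.76 ± 0.06 and -0.55 ± 0.06. Only 2.10, 1.47 and 0.083% of the 11366, 11592 and 10820 genes lost label faster than Myc, and 1.12, 0.95 and 0.67% faster than Mycn. Mycl, Max and Mga were slower, with Ctrl slopes of -0.31, -0.33 and -0.23 in the METTL3 line, -0.34, -0.40 and -0.29 in YTHDC1 cells and -0.25, -0.21 and -0.09 in the ZCCHC8 line. Over the 3 lines, 19.2 to 40.2% of all genes lost label faster than these members. The median slope of all genes was -0.11, -0.14 and -0.01.

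Expressed as a half-life of the label, fitted in each replicate over the 3 chase times, Myc was at 100.4 min ± 0.50 (SD, n = 2) in Ctrl and 98.7 ± 8.84 in dTAG cells of the METTL3 line. It was at 82.8 ± 0.71 and 73.9 ± 11.2 min in YTHDC1 cells, and at 105.4 ± 49.7 and 108 ± 11.8 min in the ZCCHC8 line, where the Ctrl replicates were far apart (141 and 70.2 min). Mycn was at 92.6 ± 2.63 and 88.4 ± 19.3 min, 79.4 ± 7.90 and 74.6 ± 0.87 min, and 113 ± 28.9 and 118 ± 0.77 min in the same order. These values depend on the measure. In Ctrl cells of the ZCCHC8 line the median ratio over the genes tested was 49.6 and 54.1% at 0 min. It was 61.2 and 62.3% at 90 min, while the median T-to-C rate fell (4.64 and 4.61% to 4.52 and 4.20%). In Ctrl cells of the METTL3 line the median ratio rose in replicate 2 alone (60.3 to 66.1%), and in YTHDC1 cells it fell slightly. Half-lives from the ratio thus hold shifts shared by many genes, and cannot be compared between lines as turnover times. From the ratio at 0 min alone, assuming a constant level and undefined in replicates where that ratio was 100%, the half-life was 25.8 to 51.3 min for Myc and 41.4 to 66.0 min for Mycn over the 6 combinations of line and arm. Both ends of the Myc range are values of 1 replicate. In Ctrl cells of the ZCCHC8 line the ratio at 0 min put Mycn at 41.4 min, against 113 min over the chase. The plain T-to-C rate gave 59.8 to 72.6 min for Myc and 64.0 to 80.8 min for Mycn. New reads in CPM, which fall only as labelled RNA is lost relative to the library, gave 56.4 to 78.0 min for Myc and 98.2 to 328 min for Mycn, whose total level rose.

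The depletion of METTL3, YTHDC1 or ZCCHC8 was tested for its effect on label loss as the difference in slope between the arms. No member passed the threshold in any line. The fitted differences for Myc were -0.01 ± 0.08 per h in the METTL3 line, -0.10 ± 0.09 in YTHDC1 cells and 0.08 ± 0.13 in the ZCCHC8 line, with 95% intervals (normal) from -0.18 to 0.15, -0.27 to 0.08 and -0.17 to 0.33. Those of Mycn were -0.05 ± 0.11, -0.05 ± 0.08 and 0.04 ± 0.08, with intervals from -0.26 to 0.17, -0.20 to 0.11 and -0.12 to 0.20. Myc in the METTL3 line had 87 reads in 1 library and was therefore tested among genes with at least 20 reads, the others among those with at least 100. The member with the largest difference was Mycl in the METTL3 line, whose ratio fell at -0.31 per h in Ctrl and -0.07 in dTAG cells. Its difference of 0.24 ± 0.09 (limma, adjusted p = 0.41 over 8289 genes) did not pass the threshold. Over all genes, 0.362% passed in the METTL3 line, 0% in YTHDC1 cells and 0% in the ZCCHC8 line. At an unadjusted p under 0.05 these were 590 of 8289, 173 of 8820 and 129 of 7251 genes.

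**Figure D3:**
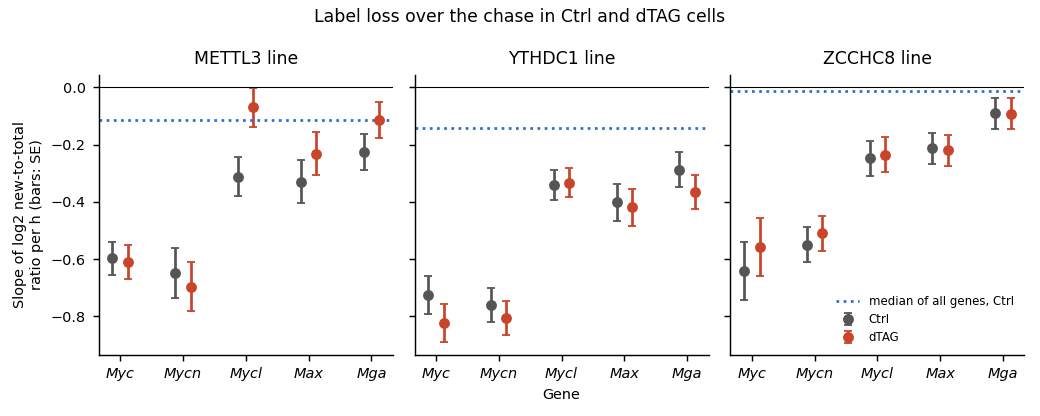
Slope of log2 of the new-to-total ratio per hour of chase (vertical axis, points with SE) for each member in Ctrl (grey) and dTAG (red) cells of each line, with the median slope of all genes in Ctrl dotted. Myc and Mycn lie at -0.51 or below in both arms of every line, and the arms overlap within their errors for most members, with Mycl of the METTL3 line the widest apart.

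The arms were also compared in the ratio itself, over all chase times. No member passed in the METTL3, YTHDC1 or ZCCHC8 line, where 27.3, 0.317 and 0.814% of genes did. Myc of the METTL3 line was again tested only among the 11366 genes with at least 20 reads, at -0.05 ± 0.09 (limma, adjusted p = 0.68). The difference between dTAG and Ctrl was -0.21 ± 0.09 for Mga in the METTL3 line (limma, adjusted p = 0.094, and 0.047 with the replicate block). In that line the ratios of Mycl at 0 min were 81.9 and 91.1% in Ctrl and 66.6 and 67.2% in dTAG cells, those of Max 80.1 and 87.5% against 67.4 and 67.6%, and those of Mga 77.2 and 78.1% against 65.9 and 55.6%. For these 3 members the arms did not overlap at 0 min, and the median over the genes tested was likewise 59.6 and 60.3% in Ctrl and 52.3 and 48.4% in dTAG cells. Myc (96.1 and 100%, against 97.2 and 97.2%) and Mycn (86.1 and 97.0%, against 91.5 and 97.0%) did not show such a gap. Myc, and Mycn in replicate 2, were near the limit of 100% in both arms, where the ratio moves little with turnover. Whether Myc, or Mycn in replicate 2, was spared therefore cannot be told from the ratio at 0 min. In replicate 1 Mycn was further from the limit and did not fall (86.1% in Ctrl, 91.5% in dTAG cells). This pair alone was not tested. In the YTHDC1 line Myc was at -0.25 ± 0.11 (adjusted p = 0.32). Without replicate 2 it was -0.51 (adjusted p = 0.046), and without replicate 1 it was 0.02 (adjusted p = 0.93).

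Levels in dTAG and Ctrl cells were compared over the 6 libraries of each arm with chase time as a factor, so that libraries of different chase times counted as replicates of an arm. In the ZCCHC8 line all 3 MYC paralogues were higher after depletion, and neither Max nor Mga passed the threshold. Of all genes tested in this line 39.6% passed in either direction and 20.1% were higher, so 3 of 5 members stands against a high background. Mycl changed most. Its level in Ctrl cells was 19.7 and 22.0 CPM at 0 min, 15.4 and 18.7 at 90 min and 19.2 and 19.3 at 180 min, and in dTAG cells 25.8 and 29.9, 21.7 and 29.5, and 22.9 and 27.4 CPM. Every dTAG library was above the Ctrl library of the same time and replicate number, and the groups touched only where the lowest dTAG value (21.7) fell under the highest Ctrl value (22.0). The difference was 0.47 ± 0.09 on the log2 scale (edgeR, adjusted p = 0.00018).

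Mycn ranged from 100.5 to 207 CPM in Ctrl (median 114) and from 105 to 250.5 CPM in dTAG cells (median 162) of the ZCCHC8 line, with the dTAG library higher in 6 of 6 pairs. The difference was 0.30 ± 0.08 (adjusted p = 0.0086). Myc ranged from 18.7 to 33.4 CPM in Ctrl (median 27.3) and from 21.8 to 39.2 CPM in dTAG cells (median 33.0), again higher in 6 of 6 pairs, with a difference of 0.22 ± 0.07 (adjusted p = 0.018). When the 3 chase times were added up within each replicate, leaving 2 against 2, Mycl kept its call (0.47, adjusted p = 0.015) and Mycn (0.26, adjusted p = 0.080) and Myc (0.23, adjusted p = 0.088) lost theirs. Myc also lost its call without replicate 1 (0.20, adjusted p = 0.074), without replicate 2 (0.24, adjusted p = 0.092) and with DESeq2 (0.20, adjusted p = 0.056). Max was at 0.03 ± 0.06 and Mga at 0.07 ± 0.06 in this line, with 95% intervals from -0.09 to 0.15 and from -0.04 to 0.19. Mga passed within replicate 2 of this line (0.12, adjusted p = 0.0074).

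In the METTL3 line none of the 5 members passed in the fit without the replicate block, where 19.9% of genes did. Myc had the widest difference and error, 0.53 ± 0.44 (adjusted p = 0.44). Its level was 26.1, 6.17 and 9.11 CPM at 0, 90 and 180 min in Ctrl replicate 1, against 22.1, 16.3 and 9.07 in dTAG replicate 1, and 39.7, 27.8 and 16.5 CPM in Ctrl replicate 2, against 51.2, 49.6 and 26.1 in dTAG replicate 2. The dTAG libraries were thus higher at all 3 times in replicate 2 and at 90 min alone in replicate 1. Fits within 1 replicate take its 3 chase times as replicates of an arm and hold no spread between replicates. Within replicate 2 Myc was higher in dTAG cells by 0.61 and within replicate 1 by 0.40. With the replicate block the difference was 0.48 (adjusted p = 0.059). Mga was at 447, 432 and 477 CPM in Ctrl and 549, 618 and 683 CPM in dTAG replicate 1, and at 363, 360 and 427 against 402, 360 and 410 CPM in replicate 2. Its difference of 0.27 ± 0.17 (adjusted p = 0.29) became 0.24 (adjusted p = 0.022) with the replicate block, under which 7059 rather than 2920 of 14658 genes passed, and it was 0.47 in replicate 1 (adjusted p = 0.0011) against 0.03 in replicate 2. Mycn (0.07 ± 0.19), Mycl (0.13 ± 0.12) and Max (0.09 ± 0.14) did not pass, but Mycl did within replicate 2 (0.25, adjusted p = 0.048).

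In the YTHDC1 line no member passed in the fit without the replicate block either, where 5.1% of genes did. The differences were 0.18 ± 0.39 for Myc, 0.10 ± 0.20 for Mycn, -0.10 ± 0.08 for Mycl, 0.14 ± 0.14 for Max and 0.03 ± 0.09 for Mga. Max passed with the replicate block (0.15, adjusted p = 0.035), under which 3888 rather than 737 of 14442 genes did. Mycl was lower in dTAG cells in 5 of 6 pairs, at 13.4 to 16.8 CPM against 14.2 to 18.9 CPM in Ctrl.

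**Figure D4:**
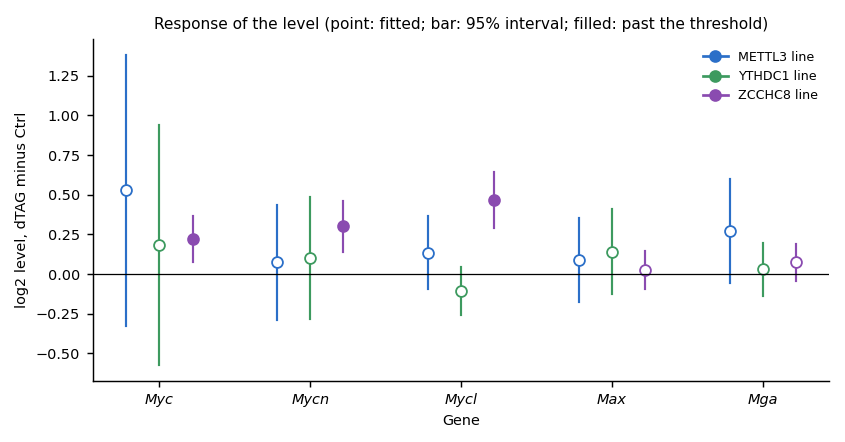
Difference in log2 level between dTAG and Ctrl cells (vertical axis) for each member, 1 colour per line, with the 95% interval as a bar and filled points where the adjusted p was under 0.05. Filled points are those of Myc, Mycn and Mycl in the ZCCHC8 line, and the intervals of Myc in the METTL3 and YTHDC1 lines are the widest.

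Whether a response differed between lines was tested as an interaction over all 36 libraries and 15346 genes. Mycl differed between the ZCCHC8 and the YTHDC1 line by 0.51 ± 0.13 (adjusted p = 0.0076), where 14.3% of genes passed. This call was lost without replicate 2 (0.49, adjusted p = 0.089). Between the ZCCHC8 and the METTL3 line the responses of Mycl differed by 0.29 ± 0.13 (adjusted p = 0.11, and 0.038 with the replicate block), where 23.4% of genes passed. Between the METTL3 and the YTHDC1 line, where 20.2% passed, no member did. Myc, Mycn, Max and Mga did not pass for any pair of lines, so the calls of Myc and Mycn in the ZCCHC8 line alone do not show a response particular to that line. Within single replicates, the METTL3 and YTHDC1 lines differed for Mycl in replicate 2 (0.35, adjusted p = 0.032) and for Mga in replicate 1 (0.31, adjusted p = 0.042), and Mga differed between the ZCCHC8 and METTL3 lines in replicate 1 (-0.41, adjusted p = 0.0087). The interval for Myc between the ZCCHC8 and METTL3 lines ran from -1.37 to 0.67.

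Splitting the level by the ratio gave estimates of new and old RNA in CPM. At 90 and 180 min the old part includes unlabelled RNA made after the pulse. The new part of Myc fell in Ctrl cells of the METTL3 line from 25.1 and 39.7 at 0 min to 3.69 and 17.1 at 90 min and 2.54 and 4.74 CPM at 180 min. Its old part went from 1.02 and 0 to 6.57 and 11.7. For Mycn in the same cells the new part fell from 84.9 and 113 to 33.5 and 55.0 while the old part went from 13.7 and 3.57 to 112 and 169 CPM. Unlabelled Mycn at 180 min thus exceeded the whole Mycn level at 0 min in replicate 1 (98.6 CPM) and in replicate 2 (117 CPM).

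**Figure D5:**
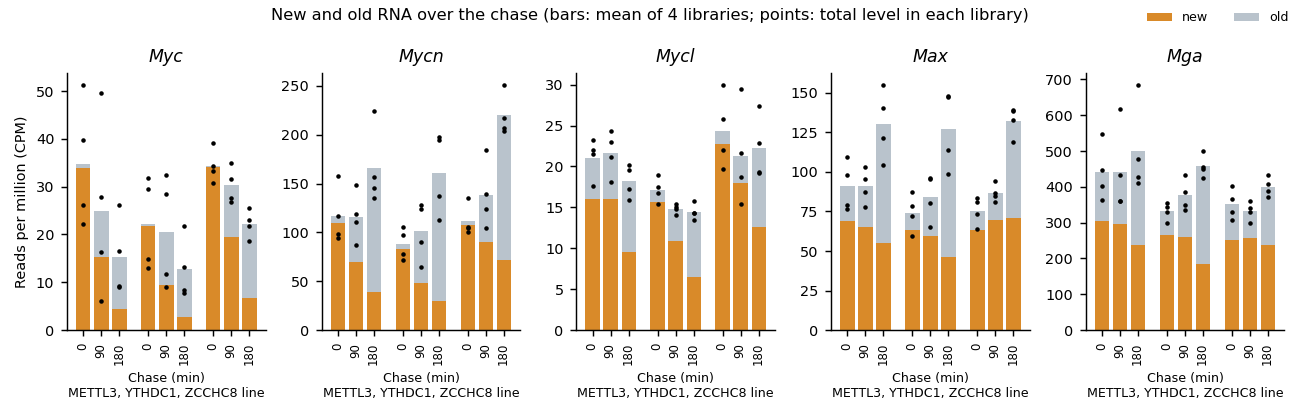
New (orange) and old (grey) RNA of each member in CPM (vertical axis, stacked bars from 0, mean of the 4 libraries of both arms) at each chase time within the METTL3, YTHDC1 and ZCCHC8 lines, left to right, with points at the total level of each library. The orange part shrinks over the chase for Myc and Mycn in every line, and the grey part grows far more for Mycn than for Myc.

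In the ZCCHC8 line new Mycn was higher in dTAG cells by 0.31 ± 0.09 (limma, adjusted p = 0.016) and new Mycl by 0.44 ± 0.11 (adjusted p = 0.0027), where 25.8% of genes passed. The call of Mycl was lost without replicate 2 (0.33, adjusted p = 0.099). New Myc was at 0.27 ± 0.14 (adjusted p = 0.17), with 0.54 in replicate 2 (adjusted p = 0.00069) and -0.0026 in replicate 1 (adjusted p = 0.9953). Old Mycn was higher by 0.66 ± 0.16 (adjusted p = 0.0075), where 19.6% of genes passed, and lost its call without replicate 1 (0.59, adjusted p = 0.30). The gap was widest at 0 min, where old Mycn was low (1.90 and 1.80 CPM in Ctrl, 4.28 and 6.54 in dTAG cells). It was at 37.8 and 41.8 against 65.4 and 48.5 CPM at 90 min. At 180 min it was at 125 and 154 against 166 and 147 CPM, with dTAG higher in replicate 1 alone. In the METTL3 line, where 14.6% of genes passed for new and 15.8% for old RNA, no member passed for either. New Myc passed within replicate 2 (0.62, adjusted p = 0.0018). Old Max (0.58 ± 0.21, adjusted p = 0.086) and old Mga (0.70 ± 0.24, adjusted p = 0.066) did with the replicate block (adjusted p = 0.037 and 0.0043), the latter also in replicate 1 alone (0.81, adjusted p = 0.0044). The median over all genes was 0.16 for old and -0.14 for new RNA in this line. In the YTHDC1 line, where 2.25% passed for new and 0.8% for old RNA, no member passed.

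Genes that work with the family were read from lists and counted by the same test of levels. Of all genes tested, 11.2% were higher and 8.73% lower in the METTL3 line, 2.41 and 2.69% in YTHDC1 cells, and 20.1 and 19.5% in the ZCCHC8 line. With the replicate block 48.2, 26.9 and 45.7% of genes passed in either direction, so the counts of each list are also given with it.

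Of the 8 partners in the MAX and MLX network, Mxi1, a MAX-binding repressor, was higher in the METTL3 line (18.4 ± 1.76 CPM (SD, n = 6) in Ctrl and 25.8 ± 2.33 in dTAG cells, 0.49, edgeR, adjusted p = 0.0050) and Mxd1 and Mxd4, of the same kind, were lower (-0.63, adjusted p = 0.013, and -0.60, adjusted p = 0.031). In the YTHDC1 line none passed, and in the ZCCHC8 line Mnt, a MAX-binding repressor, and Mlxipl were higher (0.44, adjusted p = 0.0013, and 0.31, adjusted p = 0.040). The median difference over the 8 was -0.13, -0.02 and 0.02 in the METTL3, YTHDC1 and ZCCHC8 lines. Over all genes tested it was 0.01, 0.01 and -0.0030. With the replicate block 2 partners were higher and 3 lower in the METTL3 line, none and 1 in YTHDC1 cells, and 2 and none in the ZCCHC8 line.

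Of the 12 PRC1.6 partners of MGA, 2 were higher and 1 lower in the METTL3 line, none passed in YTHDC1 cells, and 2 were higher and 1 lower in the ZCCHC8 line, with medians of 0.01, -0.08 and 0.01. The 3 of 12 that passed in the ZCCHC8 line are a smaller share than the 39.6% of all genes. The block gave 3 higher and 1 lower, none and 1, and 3 and 1. E2f6, the other sequence-specific factor of the complex, was higher in the METTL3 line (0.46, adjusted p = 0.038) and the ZCCHC8 line (0.28, adjusted p = 0.0022). Hdac1 was lower in the METTL3 line (194 ± 36.7 CPM in Ctrl and 134 ± 31.2 in dTAG cells, -0.55, adjusted p = 0.0028). Tfdp1, the dimer partner of E2F factors, was lower in the ZCCHC8 line (-0.58, adjusted p = 9.24e-11), and the Polycomb subunit L3mbtl2 was higher (0.34, adjusted p = 2.37e-06). Among 15 germline genes that MGA is known to repress, 2 were higher and 2 lower in the METTL3 line, 1 and 1 in YTHDC1 cells, and 6 and 1 in the ZCCHC8 line, with medians of -0.04, 0.02 and 0.21. These counts became 3 and 3, 3 and 2, and 7 and 1 with the replicate block. Tex101 (1.05) and Stra8 (0.86) were higher and Tex11 (-1.02) and Smc1b (-0.82) lower in the METTL3 line. Stag3, a meiotic cohesin subunit, went from 24.0 ± 2.18 to 38.1 ± 2.49 CPM in the ZCCHC8 line (0.67, adjusted p = 4.71e-08) and Mael, of the piRNA pathway, from 6.59 ± 1.45 to 11.6 ± 1.87 CPM (0.84, adjusted p = 1.56e-06).

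Of 53 MYC target genes, 9 were higher and 3 lower in the METTL3 line, none higher and 3 lower in YTHDC1 cells, and 11 higher and 9 lower in the ZCCHC8 line. Their medians were -0.01, -0.07 and 0.01. With the replicate block the counts were 14 higher and 17 lower, 1 and 16, and 14 and 10. Polr1b, a subunit of RNA polymerase I, went from 206 ± 34.4 CPM in Ctrl to 402 ± 48.8 in dTAG cells of the METTL3 line (0.96, adjusted p = 0.00038). Grwd1, a ribosome assembly factor, was higher there (0.85, adjusted p = 0.00090) and lower in YTHDC1 cells (-0.55, adjusted p = 0.017). In the ZCCHC8 line the members of the list with the smallest adjusted p were Aimp2 (-0.28), Nop56 (0.21), Ldha (-0.27) and Hk2 (0.21). The RefSeq promoter windows (GRCm38.p6, from 250 bases before to 50 after the start) of 47 of these genes were at hand, and 15 of them (31.9%) held the palindromic E-box CACGTG, against 8.09% of 27025 genes. Those 27025 genes were all that had a window, expressed here or not, so the shares are not matched for expression. Among the members with a window, Max held the E-box, and Mycn, Mycl and Mga did not.

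The 11 MYC cofactors gave 1 higher and 1 lower gene in the METTL3 line, none in YTHDC1 cells, and 2 higher and 3 lower in the ZCCHC8 line, where 5 of 11 stands against 39.6% of all genes. Cdk9, the kinase of the elongation factor P-TEFb, was higher in the METTL3 line (0.57, adjusted p = 0.0060) and the ZCCHC8 line (0.23, adjusted p = 0.0013), and the ATPase Ruvbl1 was lower in both (-0.42, adjusted p = 0.011, and -0.18, adjusted p = 0.0032). Of 9 genes of MYC protein turnover, Skp2, a ubiquitin ligase subunit, was higher in the METTL3 line (0.55, adjusted p = 0.0017). No other passed there and none in YTHDC1 cells. In the ZCCHC8 line 1 was higher and 4 lower, where 20.1% of all genes were higher and 19.5% lower. Among the 4 were the kinase Gsk3b (-0.31, edgeR, adjusted p = 0.00014) and the ubiquitin ligase subunit Fbxw7 (-0.23, adjusted p = 0.0056), which mark MYC for degradation. MYC protein was not measured. The medians were -0.14, -0.06 and -0.04 for the cofactors and -0.18, -0.01 and -0.02 for turnover. With the replicate block 1 cofactor was higher and 5 lower in the METTL3 line, 1 and 2 in YTHDC1 cells, and 2 and 3 in the ZCCHC8 line. Of the turnover genes it gave 2 higher and 4 lower, 1 and 1, and 1 and 4.

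Markers of cell states and of feeder cells were counted by the same test of levels. Over all genes tested, 11.2, 2.41 and 20.1% were higher in the METTL3, YTHDC1 and ZCCHC8 lines. Of 8 differentiation markers, 6 had enough reads in each line. In the METTL3 line 3 of them, Eomes (1.80), Pax6 (1.13) and Gata6 (1.09), were higher in dTAG cells, and the sum of the 8 was 17.6 to 39.4 RPM in Ctrl and 25.4 to 83.1 in dTAG cells. In the ZCCHC8 line 4 were higher, led by Pax6 (0.82), with sums of 27.9 to 39.7 and 36.4 to 51.8, and none passed in YTHDC1 cells (sums of 14.9 to 35.9 and 17.0 to 33.9). Cdx2 was at 0 in 10 of 36 libraries and Foxa2 in 14. Of 9 mES cell markers, 3 were higher in the ZCCHC8 line (Dppa5a, Tdgf1 and Nanog, by 0.20 to 0.24), and none passed in the other lines. Under the block 3 mES cell markers were higher and 2 lower in the METTL3 line, 1 and 2 in YTHDC1 cells, and 4 and 1 in the ZCCHC8 line. It also called 5 differentiation markers higher in the METTL3 line, 1 in YTHDC1 cells and 4 in the ZCCHC8 line. Of 6 fibroblast markers with enough reads, Acta2 was higher in the METTL3 line (0.49 ± 0.29 CPM in Ctrl and 1.21 ± 0.48 in dTAG cells) and Tagln lower in the ZCCHC8 line (-0.67). The part of such cells in the values above was not tested, and in bulk RNA fewer cells of a type cannot be told apart from less RNA per cell.

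Across the 36 libraries, after subtraction of each line's mean, the genes whose log2 level was most like that of Mycn were Max (Pearson r = 0.937), Cdh3 (0.908) and Plk3 (0.906), among 9511 genes with a mean of at least 10 CPM. For Max, Mycn was in turn the most similar. Those most like Myc were Larp1 (0.949), Raver1 (0.946) and Utf1 (0.943). Myc and Mycn had r = 0.068, and Myc and Mga r = -0.58. These values describe the libraries, which share replicate numbers and chase times. They are given with no test.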

How the data were processed

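RNA was measured in 36 libraries, 12 from each of 3 lines. The authors aligned stranded total RNA reads to mm10 with STAR 2.5.2b and estimated new RNA with GRAND-SLAM, whose version, annotation release and use of strand were not given in the sources used here. The deposited tables hold read counts per gene and library, as well as the new-to-total ratio as a fraction (0 to 1, shown here in percent), both made by the authors without scaling between libraries. Conversions and covered T positions, deposited as sums rounded by the authors' tool and treated as a score, gave the T-to-C rate. Another 180 columns of libraries were not used. The limit on mismatches in alignment can lose the most converted reads, which would lower the ratio.

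Here, R 4.3.3 was used with edgeR 4.0.16 (TMM, quasi-likelihood, chase time and arm as factors) for counts. Ratios on the log2 scale were tested with limma 3.58.1 where all 12 libraries of a line had 100 or more reads and ratios not under 0.02, and new and old CPM with a pseudocount of 0.5, which understates changes of low genes. DESeq2 1.42.0, RLE factors, no filter, other label measures, a replicate block, single replicates and summed chase libraries were alternatives. In fits of single replicates the libraries of different chase times are the only replicates. Their p-values therefore measure no spread between replicates. Adjusted p-values are over all genes, with a threshold of 0.05, and intervals are normal 95% intervals. The reporting summary ties the wells of a replicate to 1 batch of cells in general terms. The replicate numbers also paired the samples by the data. Deviations of same-numbered Ctrl and dTAG libraries correlated at 0.62 to 0.78 (METTL3), 0.69 to 0.75 (YTHDC1) and 0.18 to 0.19 (ZCCHC8). The main fits nevertheless take no replicate block, and the calls of members that the block changed are given beside them. All 5 members are named, and of each other list at most the 4 genes with the smallest adjusted p. Members and lists were chosen with earlier results of these data known. The tests were tried on simulated data first. Of simulated level changes of 1 on the log2 scale, the level test recovered 56.9% in the METTL3 line, 82.9% in YTHDC1 cells and 96.0% in the ZCCHC8 line. The lines thus differed in the power of this test.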

Additional observations from a re-analysis of the deposited data

Results flagged for a closer look

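The response of Mycl to depletion differed between 2 lines, by a test of the difference itself. Its level was higher in dTAG than in Ctrl cells by 0.47 ± 0.09 (log2, SE) in the ZCCHC8 line and was at -0.10 ± 0.08 in the YTHDC1 line. The responses differed by 0.51 ± 0.13 (edgeR interaction over 36 libraries, adjusted p = 0.0076). The dTAG library was the higher of its pair in 6 of 6 pairs of the ZCCHC8 line and in 1 of 6 of the YTHDC1 line. Without replicate 2 the difference was 0.49 (adjusted p = 0.089), and with the replicate block it was 0.51 (adjusted p = 0.00078). The lines are 1 clone each, so the clone and the degraded protein cannot be told apart.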

How the results depend on the processing

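Of 538 refitted values of members, 443 kept their direction and their side of the threshold, 55 changed sign, 31 came past the threshold and 9 lost it. None of the values that changed sign was past the threshold. Mycl in the ZCCHC8 line kept its higher level under each of the 7 alternatives tried. The causes of the changes were not tested. Each half-life rests on 2 replicates, and Myc on as few as 87 reads.

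The replicate block moved counts of genes past the threshold to 7059 (level, METTL3), 5926 (level over the chase, METTL3), 81 (label loss, METTL3), 5474 (new RNA, METTL3), 4778 (old RNA, METTL3), 3888 (level, YTHDC1), 9349 (level over the chase, YTHDC1), 72 (ratio, YTHDC1), 1856 (new RNA, YTHDC1), 1427 (old RNA, YTHDC1), 94 (ratio, ZCCHC8), 6472 (level, METTL3 minus YTHDC1), 4914 (level, ZCCHC8 minus YTHDC1) and 6612 (level, ZCCHC8 minus METTL3). Under it these member values came past the threshold: 0.24 (Mga level, METTL3), -1.26 (Myc level over the chase, METTL3), 0.51 (Mycn level over the chase, METTL3), 0.52 (Max level over the chase, METTL3), -0.21 (Mga ratio, METTL3), 0.58 (Max old RNA, METTL3), 0.70 (Mga old RNA, METTL3), 0.15 (Max level, YTHDC1), -0.80 (Myc level over the chase, YTHDC1), -0.25 (Mycl level over the chase, YTHDC1) and 0.29 (Mycl level, ZCCHC8 minus METTL3). The Myc response between ZCCHC8 and YTHDC1 changed sign to 0.021. The pairing changed no other call of a member.

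DESeq2 called 1158 (level, YTHDC1) genes and gave 0.20 (Myc level, ZCCHC8), which lost its call. Summed chase libraries called 0 (level, METTL3) and 0 (level, YTHDC1) genes, and 0.23 (Myc level, ZCCHC8) and 0.26 (Mycn level, ZCCHC8) lost their calls. At an unadjusted p under 0.05, edgeR on the summed libraries gave 1434 and 698 genes. A minimum of 20 reads gave 5 (label loss, METTL3), 6 (ratio, YTHDC1) and 3 (ratio, ZCCHC8) genes. The T-to-C rate gave 11 (label loss, METTL3), 719 (ratio, METTL3), 14 (ratio, YTHDC1) and 293 (ratio, ZCCHC8) genes, and with it 0.0028 (Mycn label loss, METTL3), 0.11 (Myc ratio, METTL3), 0.0017 (Mycl ratio, METTL3), 0.045 (Max label loss, YTHDC1), 0.059 (Max label loss, ZCCHC8), 0.045 (Mga label loss, ZCCHC8), -0.066 (Myc ratio, ZCCHC8), -0.091 (Mycn ratio, ZCCHC8) and -0.044 (Max ratio, ZCCHC8) changed sign. New reads in CPM, an alternative chosen after seeing the data, gave 0 (label loss, METTL3) genes, with 89 at an unadjusted limma p under 0.05, and the sign changed for 0.070 (Myc label loss, METTL3), 0.067 (Myc label loss, YTHDC1), 0.0047 (Mycn label loss, YTHDC1), -0.0013 (Mycl label loss, ZCCHC8), 0.082 (Max label loss, ZCCHC8) and 0.052 (Mga label loss, ZCCHC8).

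Half-lives in min moved most with the measure. From 0 and 90 min alone they put Myc at 129.7 (Ctrl METTL3), 123.1 (dTAG METTL3), 99.9 (Ctrl YTHDC1) and 145.8 (dTAG ZCCHC8) and Mycn at 134.0 (Ctrl METTL3), 145.5 (dTAG METTL3), 88.4 (Ctrl YTHDC1), 95.5 (dTAG YTHDC1), 153.4 (Ctrl ZCCHC8) and 162.9 (dTAG ZCCHC8). From 90 and 180 min alone they put Myc at 82.0 (Ctrl METTL3), 85.6 (dTAG METTL3), 74.1 (Ctrl YTHDC1) and 85.8 (dTAG ZCCHC8) and Mycn at 73.6 (Ctrl METTL3), 63.8 (dTAG METTL3), 65.2 (dTAG YTHDC1) and 92.3 (dTAG ZCCHC8). The T-to-C rate put Myc at 72.6 (Ctrl METTL3), 70.5 (dTAG METTL3), 63.5 (Ctrl YTHDC1), 59.8 (dTAG YTHDC1) and 72.2 (dTAG ZCCHC8) and Mycn at 72.6 (Ctrl METTL3), 64.7 (Ctrl YTHDC1), 64.0 (dTAG YTHDC1), 72.0 (Ctrl ZCCHC8) and 80.8 (dTAG ZCCHC8). With new reads in CPM they put Myc at 56.6 (Ctrl METTL3), 61.3 (dTAG METTL3), 56.4 (Ctrl YTHDC1), 60.0 (dTAG YTHDC1) and 78.0 (dTAG ZCCHC8) and Mycn at 153.5 (Ctrl METTL3), 119.5 (Ctrl YTHDC1), 120.4 (dTAG YTHDC1), 328.1 (Ctrl ZCCHC8) and 326.4 (dTAG ZCCHC8).

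Leaving out each replicate in turn, the counts of genes ranged over 2 to 256 (label loss, METTL3), 0 to 26 (label loss, ZCCHC8), 3780 to 6485 (level, METTL3 minus YTHDC1), 4175 to 6367 (level, ZCCHC8 minus METTL3), 1707 to 4403 (level, ZCCHC8 minus YTHDC1), 3977 to 7165 (level over the chase, METTL3), 6606 to 8746 (level over the chase, YTHDC1), 5764 to 7524 (level, METTL3), 1368 to 3483 (level, YTHDC1), 3509 to 5213 (level, ZCCHC8), 3935 to 5169 (new RNA, METTL3), 401 to 1830 (new RNA, YTHDC1), 2071 to 2868 (new RNA, ZCCHC8), 760 to 928 (ratio, METTL3), 0 to 164 (ratio, YTHDC1), 8 to 33 (ratio, ZCCHC8), 1058 to 2935 (old RNA, METTL3), 552 to 602 (old RNA, YTHDC1) and 566 to 1021 (old RNA, ZCCHC8). The 0 of the YTHDC1 ratio came without replicate 1, with 868 genes at an unadjusted limma p under 0.05. Myc ranged over -0.054 to 0.027 (label loss, METTL3), -0.18 to 0.34 (label loss, ZCCHC8), -0.050 to 0.22 (level, ZCCHC8 minus YTHDC1), -1.38 to -1.07 (level over the chase, METTL3), -0.82 to -0.78 (level over the chase, YTHDC1), 0.40 to 0.61 (level, METTL3), -0.00056 to 0.22 (level, YTHDC1), 0.20 to 0.24 (level, ZCCHC8), 0.23 to 0.62 (new RNA, METTL3), -0.40 to 0.25 (new RNA, YTHDC1), -0.0026 to 0.54 (new RNA, ZCCHC8), -0.13 to 0.024 (ratio, METTL3), -0.51 to 0.019 (ratio, YTHDC1), -0.25 to 0.38 (ratio, ZCCHC8), -0.17 to 0.85 (old RNA, YTHDC1) and -0.083 to 0.89 (old RNA, ZCCHC8). Mycn ranged over -0.17 to 0.073 (label loss, METTL3), -0.11 to 0.015 (label loss, YTHDC1), -0.058 to 0.14 (label loss, ZCCHC8), -0.17 to 0.036 (level, METTL3 minus YTHDC1), 0.51 to 0.57 (level over the chase, METTL3), -0.011 to 0.18 (new RNA, METTL3), -0.074 to 0.10 (ratio, METTL3), -0.21 to 0.089 (ratio, YTHDC1), -0.11 to 0.13 (ratio, ZCCHC8) and 0.59 to 0.73 (old RNA, ZCCHC8). Mycl ranged over -0.0053 to 0.022 (label loss, YTHDC1), 0.14 to 0.35 (level, METTL3 minus YTHDC1), 0.49 to 0.61 (level, ZCCHC8 minus YTHDC1), 0.051 to 0.25 (level, METTL3), -0.083 to 0.18 (new RNA, METTL3), 0.33 to 0.54 (new RNA, ZCCHC8) and -0.033 to 0.020 (ratio, ZCCHC8). Max ranged over -0.046 to 0.010 (label loss, YTHDC1), -0.048 to 0.031 (label loss, ZCCHC8), 0.54 to 0.56 (level over the chase, METTL3), -0.065 to 0.12 (level, ZCCHC8), -0.068 to 0.10 (new RNA, ZCCHC8), -0.13 to 0.037 (ratio, YTHDC1), -0.0094 to 0.015 (ratio, ZCCHC8), -0.031 to 0.44 (old RNA, YTHDC1) and -0.051 to 0.070 (old RNA, ZCCHC8). Mga ranged over -0.060 to 0.058 (label loss, ZCCHC8), 0.10 to 0.31 (level, METTL3 minus YTHDC1), -0.41 to 0.078 (level, ZCCHC8 minus METTL3), -0.094 to 0.18 (level, ZCCHC8 minus YTHDC1), 0.16 to 0.23 (level over the chase, METTL3), 0.090 to 0.30 (level over the chase, ZCCHC8), 0.026 to 0.47 (level, METTL3), -0.083 to 0.11 (level, YTHDC1), 0.032 to 0.12 (level, ZCCHC8), -0.20 to 0.25 (new RNA, METTL3), -0.0049 to 0.039 (new RNA, YTHDC1), -0.043 to 0.086 (new RNA, ZCCHC8), -0.085 to 0.069 (ratio, YTHDC1), 0.60 to 0.81 (old RNA, METTL3) and -0.29 to 0.10 (old RNA, YTHDC1).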
